A study of Mus musculus with 4 samples.

Results

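The ubiquitin-specific proteases (USPs) form the largest family of deubiquitinases, and their transcripts were examined here in the hippocampus of mice with perioperative neurocognitive disorder (PND). The members were the protein-coding genes of the deposited table named Usp followed by a number and, where present, 1 letter. Of the 29300 genes in the table, 48 met this rule, and 47 of them had enough reads to be tested among 17144 genes. The remaining member, Usp44, had 1 read in a control mouse and 0 reads in the other mice, and a count of 0 allows up to 3 reads.

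The RNA came from male C57BL/6 mice aged 7 to 8 months, collected on day 1 after the operation. The 2 control mice received isoflurane anesthesia and tramadol without an operation, and the 2 PND mice received the same agents and an open fracture of the tibia. Because both groups were anesthetized, the comparison addresses the added effect of the surgery. Poly(A) RNA was read as 150 nt pairs, and totals ran from 15763432 to 18573386 counts per mouse. Each library is labelled as a separate sample. With 2 mice a group, the p-values measure only the spread between these samples.

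Ubiquitin is attached to proteins by a cascade of E1, E2 and E3 enzymes, singly or in chains, and marks them for the proteasome, for sorting between membranes or for a change of partners. USPs are cysteine proteases that remove it again, and they use a catalytic cysteine in a short conserved stretch named the Cys box. In neurons this family acts on receptors and scaffolds of the synapse, on the stability of proteins, on mitochondria and on chromatin.

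The Cys box is shown first because it is the stretch that defines the family, for the members with the largest changes. It was chosen for display after the values were seen. Each line holds 48 bases of spliced coding sequence from GENCODE M21 (mm10), 5′ to 3′, with the codon of the catalytic cysteine in capitals and the mm10 position of that codon. The first 5 lines are the members with the largest falls in PND mice among those with an adjusted p under 0.05, from the largest.
Usp20, exon 8, chr2:31004964-31004966, plus strand: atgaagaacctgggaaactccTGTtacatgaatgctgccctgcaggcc
Usp5, exon 8, chr6:124822579-124822581, minus strand: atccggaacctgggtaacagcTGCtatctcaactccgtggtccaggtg
Usp11, exon 7, chrX:20713373-20713375, plus strand: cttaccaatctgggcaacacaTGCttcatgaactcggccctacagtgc
Usp22, exon 5, chr11:61162962-61162964, minus strand: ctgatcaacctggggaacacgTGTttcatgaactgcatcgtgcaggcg
Usp19, exon 12, chr9:108495669-108495671, plus strand: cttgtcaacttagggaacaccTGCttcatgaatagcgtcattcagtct
The next 5 lines are the members with the largest rises at the same threshold.
Usp45, exon 6, chr4:21796905-21796907, plus strand: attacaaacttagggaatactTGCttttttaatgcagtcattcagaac
Usp37, exon 11, chr1:74471662-74471664, minus strand: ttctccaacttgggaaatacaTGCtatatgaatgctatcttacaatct
Usp16, exon 6, chr16:87469839-87469841, plus strand: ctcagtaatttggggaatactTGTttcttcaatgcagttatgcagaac
Usp29, exon 9, chr7:6962051-6962053, plus strand: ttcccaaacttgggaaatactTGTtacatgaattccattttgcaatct
Usp1, exon 3, chr4:98928331-98928333, plus strand: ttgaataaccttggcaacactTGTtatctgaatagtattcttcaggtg
The stretch around the cysteine had a GC content of 43.8% to 56.2% in these 5 members that fell, and of 31.2% to 37.5% in these 5 that rose. Over all 9 members that rose and had a box it ran from 31.2% to 43.8%, so the ranges met, at Usp46 and Usp19, and over 27 members that were not called it ran from 25% to 62.5%. Such a box was found by its letters in 42 of the 47 members searched. In Usp39, Usp40, Usp47, Usp53 and Usp54 it was not found, which says only that these letters were not in the coding sequences read, and Usp14 was not searched.

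Levels were compared between members as CPM (counts scaled to the library size) per kb of the longest coding transcript. Usp5, which takes apart free ubiquitin chains, had the highest mean level at 65.6 CPM per kb. It was followed by Usp22, the ubiquitin protease of the SAGA chromatin complex, at 60.5, Usp11 at 52.1 and Usp19 at 43.9 CPM per kb. Usp5 lay above Usp22 in both control mice, whereas in the PND mice their order was not the same in each mouse. At the other end lay Usp51 at 0.848 CPM per kb, Usp50 at 0.763, Usp18 at 0.658 and Usp43 at 0.354. Usp11 lay below Usp22 in every mouse, and Usp19 lay above the next member, Usp7 (38.4 CPM per kb), in the control mice but not in PND mouse 2. Each of the 4 members with the highest level was among the 5 that fell. Their transcripts have a GC content of 50.7% to 57.5%, and 24.1% of the 8482 genes at 50% or more fell. Whether level bears on the calls was not tested.

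**Figure D1:**
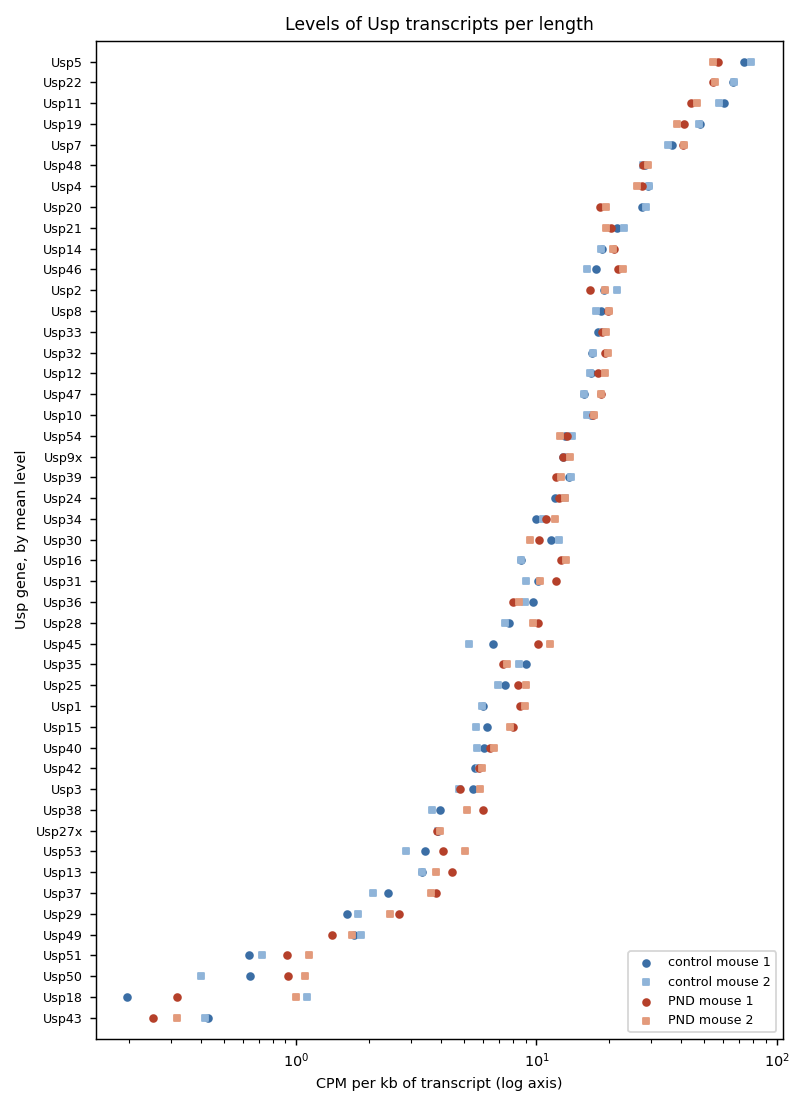
Levels of 47 Usp genes in CPM per kb of transcript (log axis), with 1 point per mouse (control blue, PND red) and Usp44 left out. The family spans from 0.354 CPM per kb (Usp43) to 65.6 (Usp5) on average, and the points of Usp18 are the most spread out for their level.

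The total of the family did not separate the groups, with members called in both directions. The summed level of all members was 3557 and 3561 CPM in the control mice against 3520 and 3576 CPM in the PND mice, so the groups overlapped. The 11 members that rose summed to 436 and 407 CPM in the control mice and to 577 and 588 CPM in the PND mice. The 5 members that fell summed to 1106 and 1122 CPM in the control mice and to 865 and 864 CPM in the PND mice. These last 2 sums were set by the calls themselves and are given as a description.

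In edgeR (quasi-likelihood F test, with p-values adjusted over all genes tested by Benjamini and Hochberg), 11 of the 47 members (23.4%) rose and 5 (10.6%) fell at an adjusted p under 0.05. Across all genes tested, 13.1% rose and 12.8% fell. At an unadjusted p under 0.05, 16 members were higher and 7 lower, beside 19.9% and 19.4% of all genes. Usp1, Usp15, Usp16, Usp28, Usp29, Usp37, Usp38, Usp45, Usp46, Usp47 and Usp53 rose, and Usp5, Usp11, Usp19, Usp20 and Usp22 fell. The groups of mice did not overlap for 38 of the 47 members (80.9%), compared with 65.5% of all genes tested, and all 16 called members were among the 38. The median log2 fold change of the members was 0.05, with quartiles of -0.16 and 0.35, beside 0.01 over all genes. To be a differentially expressed gene (DEG), a gene also had to reach 1.5 times the control level or drop to 0.67 times or below. The 3 DEGs, all higher, were Usp45, Usp37 and Usp16, and 6.75% of all genes were higher DEGs. No member was a lower DEG by edgeR, beside 2.25% of all genes, and at an unadjusted p under 0.05 none reached that fold, beside 3.24%. DESeq2 called 1 such member.

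**Figure D2:**
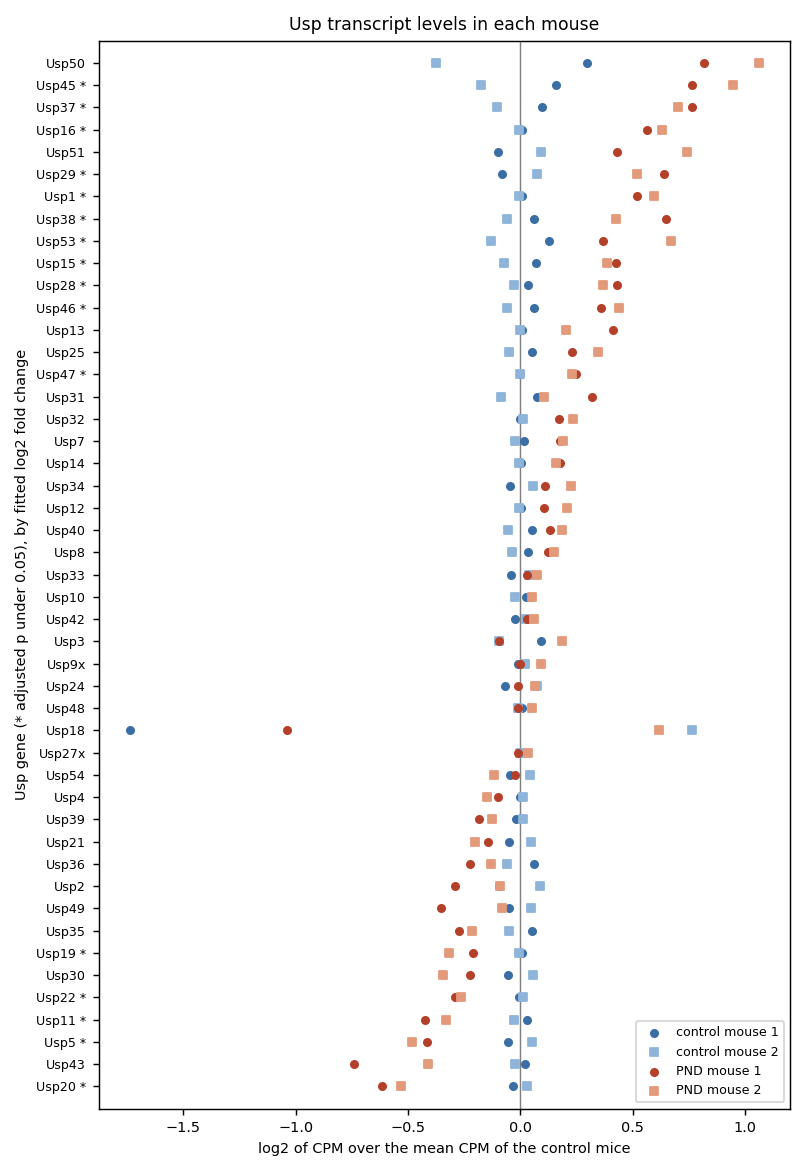
Log2 of each mouse's CPM over the mean of the control mice for the 47 tested members, ordered by fitted fold change, with an asterisk at those with an adjusted p under 0.05. The PND mice lie to the right for Usp45, Usp37 and Usp16 and to the left for Usp20 and Usp5, and the mice of Usp18 scatter across both groups.

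Scaled by library totals alone, 15 members rose, with Usp7, Usp14, Usp25 and Usp32 added, and 5 fell, beside 15.5% and 10.6% of all genes. With the replicate number as a block 13 rose and 6 fell, beside 15.5% and 15.3%. Leaving out 1 mouse changed how many members and how many of all genes passed. For these omissions the shares of all genes cover the calls and not the DEGs. Whether the number of DEGs among the members changed unlike that among all genes was therefore not tested. Without control mouse 2, 5 members rose and 3 fell, beside 6.88% and 6.64% of all genes, and Usp15, Usp28, Usp38, Usp46, Usp47, Usp53, Usp19 and Usp22 were no longer called. Without PND mouse 1, 7 rose and 5 fell, beside 11.7% of all genes in each direction, and Usp28, Usp29, Usp38 and Usp47 lost the call. Without control mouse 1, 9 rose and 4 fell, beside 10.2% and 9.3%, and the number of higher DEGs was 5. Without PND mouse 2, 10 rose and 4 fell, beside 9.23% and 7.62%. Usp45, Usp37, Usp16, Usp1, Usp20, Usp5 and Usp11 were called whichever mouse was left out.

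The highest rise among the DEGs was that of Usp45, a protease known to act on the DNA repair nuclease subunit ERCC1. Its level was 39.8 and 31.5 CPM in the control mice and 60.4 and 68.6 CPM in the PND mice. Both PND mice were above both control mice. The log2 fold change was 0.86 (SE 0.13, n = 2 per group, edgeR adjusted p = 0.0067).

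Usp37 and Usp29 belong to 1 branch of the family, in which Usp37 stabilizes cyclin A and other proteins of S phase and Usp29 is an imprinted gene next to Peg3. Usp37 stood at 17.1 and 14.9 CPM in the control mice and at 27.2 and 26 CPM in the PND mice, a log2 fold change of 0.73 (SE 0.12, edgeR adjusted p = 0.0077). Usp29 stood at 12.2 and 13.6 CPM in the control mice and at 20.1 and 18.5 CPM in the PND mice, a log2 fold change of 0.58 (SE 0.13, edgeR adjusted p = 0.02). For both genes the PND mice lay above the control mice without overlap. Of the exon bases of Usp29, 14.8% overlap other genes, Zim3 on the opposite strand among them, and the counting is not stated to use strand. Usp29 was not called without control mouse 1 (log2 fold change 0.50) nor without PND mouse 1 (0.51).

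The members that act on histones or in the nucleolus did not move one way. Of 9 tested, Usp16 rose, Usp22 fell and 7 did not pass, beside 13.1% of all genes that rose and 12.8% that fell. The median log2 fold change of the 9 was 0.01. Usp16, which removes ubiquitin from histone H2A, had 27.7 and 27.5 CPM in the control mice and 40.8 and 42.7 CPM in the PND mice. The difference was 0.60 on the log2 scale (SE 0.08, edgeR adjusted p = 0.0061), with no overlap. Usp22, which acts on histone H2B, had 293 and 296 CPM in the control mice and 240 and 245 CPM in the PND mice, so both PND mice were lower. Its log2 fold change was -0.28 (SE 0.06, edgeR adjusted p = 0.014). Usp27x and Usp51 can take the place of Usp22 on its partners, and their log2 fold changes were 0.01 (SE 0.11) and 0.59 (SE 0.30, edgeR adjusted p = 0.2). The values of Usp3, Usp21, Usp36, Usp42 and Usp49 lay between -0.21 and 0.05. For Usp49, 52.3% of exon bases overlap Gm20517 or Tomm6.

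Usp1, Usp12 and Usp46 gain activity from the WD-repeat protein WDR48, and 2 of these 3 rose, beside 13.1% of all genes tested. The transcripts of Usp1 (44.1%) and Usp46 (42.5%) lie below a GC content of 45%, where 41.9% of 4121 genes rose. That of Usp12 has 49.6%. Usp1, which acts on FANCD2 and PCNA in DNA repair, had 21.4 and 21.2 CPM in the control mice and 30.5 and 32.2 CPM in the PND mice. The log2 fold change was 0.56 (SE 0.09, edgeR adjusted p = 0.0092), and 13.1% of its 75 nt windows are shared with the locus Gm5841. Usp46 (chr5:73998453-74068431, minus strand), which removes ubiquitin from AMPA-type glutamate receptors, had 83.7 and 77 CPM in the control mice and 103 and 109 CPM in the PND mice. Its log2 fold change was 0.40 (SE 0.07, edgeR adjusted p = 0.012), without overlap, and without control mouse 2 it was 0.34 and not called. Usp12, the closest relative of Usp46, stood at 0.16 (SE 0.07, edgeR adjusted p = 0.15). The shared partner Wdr48 had a log2 fold change of -0.02 (SE 0.07).

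In the group with a DUSP domain, Usp20 and Usp11 fell, Usp15 rose and 4 of 7 did not pass, beside 12.8% of all genes that fell and 13.1% that rose. Usp20, known from the recycling of the beta-2 adrenergic receptor, had 140 and 146 CPM in the control mice and 93.2 and 98.9 CPM in the PND mice. This was the largest fall among the called members, at -0.57 (SE 0.07, edgeR adjusted p = 0.0046), a fold change of 0.673 that lies just short of the DEG limit. Usp11, known from repair by homologous recombination, had 208 and 200 CPM in the control mice and 152 and 162 CPM in the PND mice (log2 fold change -0.38, SE 0.06, edgeR adjusted p = 0.0095). Neither gene had overlapping groups. Usp15, a regulator of TGF-beta signaling and an antagonist of Parkin, went the other way, with 71.5 and 64.8 CPM in the control mice and 91.6 and 88.9 CPM in the PND mice (log2 fold change 0.41, SE 0.08, edgeR adjusted p = 0.012). Usp4, Usp32, Usp33 and Usp48 had values from -0.13 to 0.20.

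Among the proteases that serve the proteasome and recycle ubiquitin, Usp5 fell, as did 12.8% of all genes tested. Usp13 and Usp14 did not pass. Usp5 had 234 and 252 CPM in the control mice and 182 and 174 CPM in the PND mice, with no overlap. Its log2 fold change was -0.45 (SE 0.07, edgeR adjusted p = 0.0064). Usp13, its closest relative, stood at 0.31 (SE 0.11, edgeR adjusted p = 0.079). Usp14, which trims chains on the proteasome, had 88.6 and 88.1 CPM in the control mice and 99.8 and 98.6 CPM in the PND mice. The PND mice were higher in each case, with a log2 fold change of 0.17 (SE 0.06, edgeR adjusted p = 0.097), and 26% of its exon bases overlap Thoc1 on the opposite strand.

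Of the 3 members placed at membranes, Usp19, which is anchored in the endoplasmic reticulum, fell, as did 12.8% of all genes tested. Usp19 had 230 and 228 CPM in the control mice and 198 and 184 CPM in the PND mice, a log2 fold change of -0.26 (SE 0.06, edgeR adjusted p = 0.025). It was not called without control mouse 1 (-0.26), control mouse 2 (-0.27) or PND mouse 2 (-0.21). Usp30 (chr5:114065461-114124720, plus strand) sits in the outer mitochondrial membrane and opposes Parkin in mitophagy, and 8.08% of its exon bases overlap Alkbh2 or Svop on the opposite strand. Its level was 52.8 and 57 CPM in the control mice and 47 and 43.3 CPM in the PND mice. The groups did not overlap, and the log2 fold change of -0.28 (SE 0.09) missed the threshold with an edgeR adjusted p of 0.0539. With the replicate number as a block it was called lower (edgeR adjusted p = 0.0499, and from 0.0499 to 0.52 over its alternatives). Usp8, which works on endosomes, had a value of 0.14 (SE 0.07).

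None of the 3 members known for p53 and MDM2 passed by edgeR, and 1 did so at an unadjusted p under 0.05, as 19.9% of all genes did in that direction. That was Usp7 (chr16:8689595-8792308, minus strand), the protease of MDM2 and p53, with 173 and 168 CPM in the control mice and 193 and 195 CPM in the PND mice. The groups did not overlap (log2 fold change 0.18, SE 0.06, edgeR adjusted p = 0.06). Scaled by library totals alone, Usp7 was called (0.23, edgeR adjusted p = 0.029, and from 0.029 to 0.53 over its alternatives). Usp2 (chr9:44067021-44095627, plus strand), an output gene of the circadian clock, had 73.9 and 83.9 CPM in the control mice and 64.5 and 74.1 CPM in the PND mice. Here the groups overlapped, with a log2 fold change of -0.19 (SE 0.10, edgeR adjusted p = 0.21). Usp10 stood at 0.05 (SE 0.07).

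None of the 3 very large members passed by edgeR, also at an unadjusted p. Usp9x (chrX:13071498-13173328, plus strand), whose product acts in the growth of neurons and at synapses, had 153 and 156 CPM in the control mice and 154 and 164 CPM in the PND mice. These groups overlapped, and the log2 fold change was 0.04 (SE 0.06, edgeR adjusted p = 0.66). Usp24 and Usp34 had values of 0.03 (SE 0.07) and 0.16 (SE 0.07), and 11.6% of the exon bases of Usp34 overlap Ahsa2 on the opposite strand.

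Usp18 (chr6:121245906-121270917, plus strand) removes the ubiquitin-like protein ISG15 and is induced by interferon. It was counted 6 and 36 times in the control mice and 9 and 30 times in the PND mice, and the spread within each group was larger than any difference between them. The log2 fold change of 0.01 (SE 0.79) ran from -1.04 to 1.75 as each mouse was left out. Isg15 itself was at 1.51 and 0.766 CPM in the control mice and 1.25 and 2.96 CPM in the PND mice, and the mouse with the lowest Isg15 had the highest Usp18.

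Usp28, which stabilizes Myc, had 31.8 and 30.5 CPM in the control mice and 41.9 and 40.1 CPM in the PND mice. It rose by a log2 fold change of 0.40 (SE 0.08, edgeR adjusted p = 0.018) without overlap, and its relative Usp25 stood at 0.29 (SE 0.09, edgeR adjusted p = 0.059). Of the 4 members first described as inactive, Usp53, a protein of cell junctions, had 21.3 and 17.8 CPM in the control mice and 25.2 and 31 CPM in the PND mice. The control mice and the PND mice each differed widely among themselves, and the rise was 0.53 (SE 0.15, edgeR adjusted p = 0.042). The splicing factor Usp39 had -0.16 (SE 0.09), Usp54 had -0.07 (SE 0.07) and Usp50 had 0.95 (SE 0.40, edgeR adjusted p = 0.13) on 10 to 25 reads per mouse.

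In the less characterised rest of the family, Usp38 and Usp47 rose beside Usp45, as did 13.1% of all genes tested. Usp38 had 18.8 and 17.3 CPM in the control mice and 28.2 and 24.2 CPM in the PND mice (log2 fold change 0.54, SE 0.12, edgeR adjusted p = 0.022), with no overlap. Of its exon bases, 20.5% overlap Gm9725 on the opposite strand. Usp47, known for its action on DNA polymerase beta, had 91 and 91.1 CPM in the control mice and 108 and 107 CPM in the PND mice. This was the smallest of the 11 rises, at 0.24 (SE 0.06, edgeR adjusted p = 0.033), and it was lost under each of the 4 omissions of a mouse and in DESeq2. Usp31, Usp35, Usp40 and Usp43 had values of 0.22, -0.25, 0.16 and -0.56, and none passed. Usp31 was called higher with the replicate number as a block (0.21, SE 0.06, edgeR adjusted p = 0.042, and from 0.042 to 0.92 over its alternatives) and without PND mouse 2.

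The members that rose and those that fell did not overlap in base composition. The transcripts of the 11 that rose had a GC content of 39.4% to 46.9% (median 43.6%), and those of the 5 that fell had 50.7% to 57.5% (median 55.7%). The other tested members ran from 39.2% to 59.1% (median 49.6%). The same split was seen at the third base of codons, with medians of 46.8% and 67.3%, and in the 3′ UTR, with medians of 40.8% and 52.3%. Across the 47 members, Spearman's rho between the log2 fold change and transcript GC content was -0.76 (Pearson's r -0.70), and across 17120 genes it was -0.65. Between mice of the same group, rho with the log2 ratio of mouse 2 over mouse 1 was 0.27 in control mice and -0.04 in PND mice over the same 47 members. With transcript length rho was 0.16. These correlations are across genes, which share libraries and are not independent replicates.

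The called members moved in the direction more common among the genes of their own GC class. Likeness to those genes was not tested. Below a GC content of 45%, 9 of 14 members (64.3%) rose and 0 fell, beside 41.9% and 0.607% of 4121 genes, and the median log2 fold change was 0.40 for members and 0.46 for all genes. From 45% to 50%, 2 of 15 members (13.3%) rose and 0 fell, beside 9.52% and 2.81% of 4517 genes, with medians of 0.18 and 0.11. At 50% or more, 0 of 18 members rose and 5 (27.8%) fell, beside 1.01% and 24.1% of 8482 genes, with medians of -0.20 and -0.21.

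**Figure D3:**
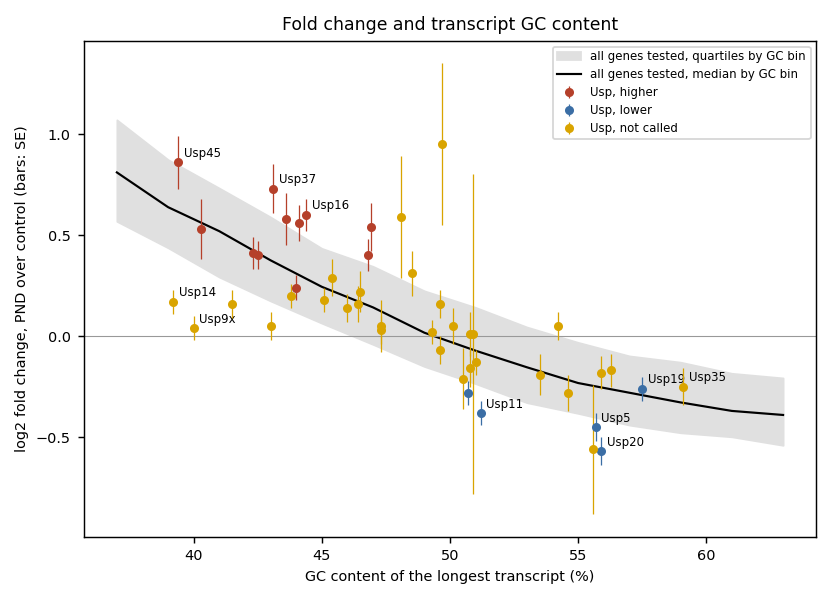
Log2 fold change (PND over control, bars SE) against the GC content of the longest transcript for the 47 tested members, with the median (line) and quartiles (band) of all genes in GC bins. Members that rose lie at 39.4% to 46.9% GC and those that fell at 50.7% to 57.5%, in the direction of the slope of all genes. Below the band lie Usp9x, Usp14, Usp33, Usp34, Usp43, Usp5, Usp11, Usp20 and Usp22, and others, such as Usp37 and Usp38, lie above it.

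When the trend of each library with transcript GC content and length was fitted over all genes and removed, none of the 16 calls was kept. By edgeR 0 members rose and 2 fell, beside 0.555% and 0.993% of all genes, and at an unadjusted p under 0.05, 6 had a positive and 8 a negative value, beside 7.55% and 14% of all genes. Of the 11 members that had risen, 7 kept a positive value, with a median of 0.23 over the 11. All 5 that had fallen kept a negative value, with a median of -0.26. Usp37, at 0.36 (SE 0.12), and Usp38, at 0.37 (SE 0.13), kept the largest positive values of the 11. Usp45 moved to 0.23 (SE 0.11, edgeR adjusted p = 0.27) and Usp16 to 0.29 (SE 0.09, edgeR adjusted p = 0.13). Usp53, Usp15, Usp46 and Usp47 were between -0.09 and 0. Usp20 stood at -0.37 (SE 0.07, edgeR adjusted p = 0.0519, and from 3.2e-08 to 0.0519 over its alternatives). Usp11 and Usp22 moved little, to -0.34 and -0.26, whereas Usp19 moved to -0.02. With the replicate number as a block beside the correction, 0 members rose and 8 fell (Usp5, Usp9x, Usp11, Usp14, Usp20, Usp22, Usp33 and Usp34), beside 4.32% and 9.15% of all genes.

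The 2 members that fell after the correction were not called before it. Usp9x had a corrected log2 fold change of -0.53 (SE 0.07, edgeR adjusted p = 0.03, and from 0.0018 to 0.994 over its alternatives), and Usp14 one of -0.48 (SE 0.08, edgeR adjusted p = 0.0484, and from 0.0046 to 0.28). Their transcripts have GC contents of 40% and 39.2%, in the class below 45% GC whose median log2 fold change was 0.46, so these values describe levels relative to genes of like composition. Their CPM did not fall, as given above. A difference between the groups in RNA handling or library preparation and one in the tissue cannot be told apart here, since each leaves only the counts.

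**Figure D4:**
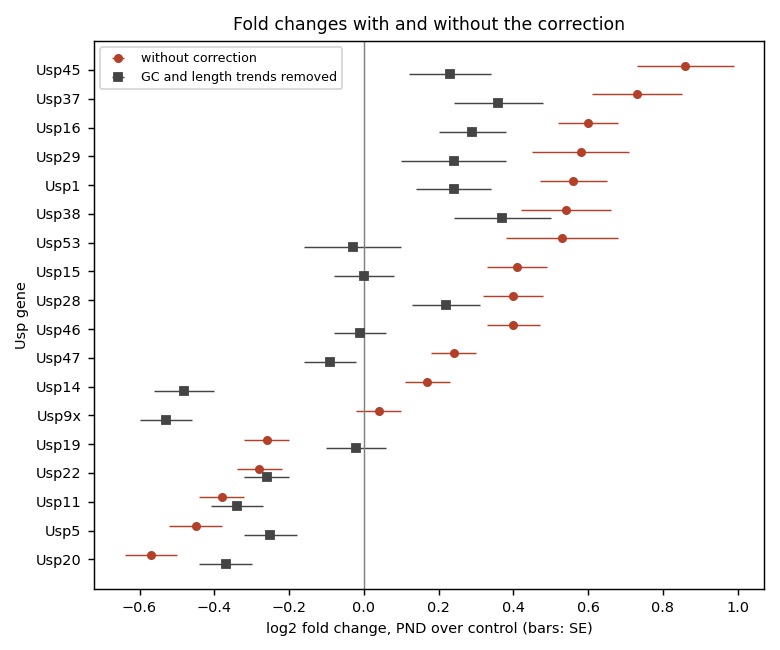
Log2 fold changes (bars SE) of the 16 called members, Usp9x and Usp14 before (circles) and after (squares) removal of the GC and length trends. The values of Usp45, Usp16 and Usp1 shrink, those of Usp15, Usp46 and Usp53 reach about 0, those of Usp11 and Usp22 stay close, and Usp9x and Usp14 move from 0.04 and 0.17 to -0.53 and -0.48.

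Ratios of close relatives are given as a description, since the 12 pairs were chosen after the values of their members were seen and Usp15 is in 2 of them. The log2 ratio of each pair was computed within each mouse, where scaling of the library cancels. The log2 ratio of Usp5 to Usp13 was 3.21 and 3.33 in the control mice, against 2.44 and 2.58 in the PND mice. That of Usp11 to Usp15 came to 1.54 and 1.63 in the control mice and dropped to 0.73 and 0.87 in the PND mice. That of Usp20 to Usp33 started at 0.89 and 0.88 in the control mice, with 0.24 and 0.28 in the PND mice, and 24.4% of the exon bases of Usp33 overlap genes on the opposite strand. In each of these the member with more GC lost ground to its relative in both PND mice. Usp35 lost ground to Usp38 by 0.78 on average (1.04 and 1.06 against 0.13 and 0.41). The ratio of Usp22 to Usp27x fell from 4.14 and 4.15 to 3.86 and 3.85, although the transcripts are nearly equal in GC content, at 50.7% and 50.8%. The ratio of Usp29 to Usp37 overlapped between the groups. The member with less GC had the higher fold change in 10 of the 12 pairs, the exceptions being Usp25 with Usp28 and Usp22 with Usp27x. With 2 mice a group, the exact permutation test (two-sided) cannot go below p = 0.333 for any pair.

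**Figure D5:**
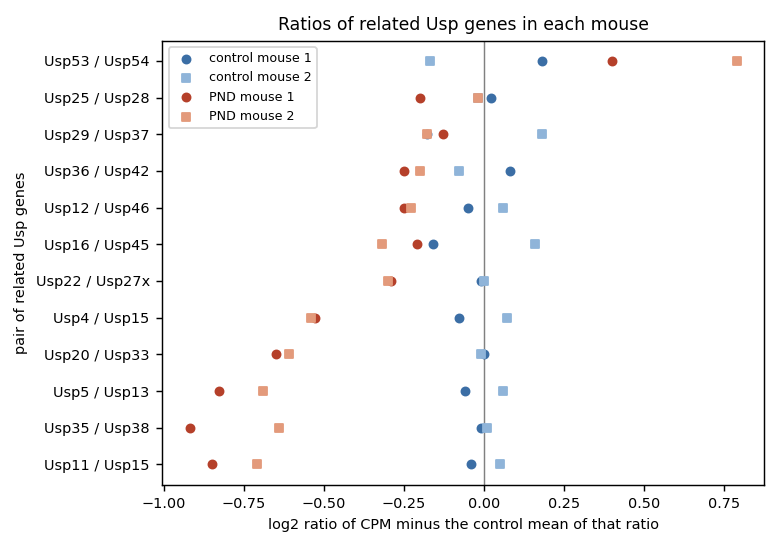
Log2 ratio of CPM of 12 pairs of related Usp genes in each mouse, minus the mean of that ratio in the control mice. The PND mice lie to the left for Usp11 over Usp15, Usp35 over Usp38, Usp5 over Usp13 and Usp20 over Usp33, to the right for Usp53 over Usp54, and among the control mice for Usp29 over Usp37.

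The promoters of the family are rich in CG letters. RefSeq windows of GRCm38.p6 from 250 bases before to 50 after the start were matched for 36 of the 48 members, with a median GC content of 65.7% beside 52.7% over 32851 windows. Both strands were searched for 6 short motifs, and overlap between motifs was allowed. The GC box GGGCGG was in 26 windows (72.2%, beside 35.7% of all windows) and the ETS letters CCGGAAG in 8 (22.2% beside 8.86%). CCAAT was in 8 (22.2% beside 37.4%), the E-box CACGTG in 4 (11.1% beside 7.15%) and the CRE letters TGACGTCA in 1 (2.78% beside 1.79%). The core GCGCATGC of the motif of NRF1, a factor known for nuclear genes of mitochondria, was in 2 windows (5.56% beside 2.71%), those of Usp37 and Usp48. The stretch of Usp37 is shown because Usp37 is the DEG that holds this core, which is in capitals.
Usp37 promoter, chr1:74506012-74506071, minus strand: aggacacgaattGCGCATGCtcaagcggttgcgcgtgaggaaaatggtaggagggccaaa
The core starts at position -238 from the RefSeq start, which lies inside the gene as counted (chr1:74435511-74544284). Usp37 rose, whereas Usp48 had a log2 fold change of 0.02 (SE 0.06). A match of letters is no site of binding.

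Of 36 other deubiquitinases tested, 11 rose (30.6%) and 4 fell (11.1%), beside 13.1% and 12.8% of all genes, with a median log2 fold change of 0.07. After the correction 0 were called by edgeR in either direction, beside 0.555% and 0.993% of all genes, and 0 were higher and 5 lower at an unadjusted p under 0.05, beside 7.55% and 14%. With the replicate block beside the correction 4 were lower (Uchl1, Bap1, Psmd14 and Cops5), beside 9.15% of all genes. The 3 with the largest changes were Mysm1, Zufsp and Atxn3, each with both PND mice above both control mice. After the correction their log2 fold changes were 0.25, 0.18 and 0.18, and none was called. Mysm1, the JAMM-type protease of histone H2A, had 29.9 and 25.4 CPM in the control mice and 49.9 and 48 CPM in the PND mice (log2 fold change 0.83, SE 0.10, edgeR adjusted p = 0.005). Zufsp, of a class of its own, had 7.9 and 6.73 CPM in the control mice and 14.1 and 11.4 CPM in the PND mice (0.80, SE 0.18, edgeR adjusted p = 0.021). Atxn3, the Josephin protease mutated in a form of spinocerebellar ataxia, had 22.2 and 20.8 CPM in the control mice and 33.5 and 37.1 CPM in the PND mice (0.72, SE 0.10, edgeR adjusted p = 0.0061).

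Of 21 partners of USPs, ubiquitin genes and E1 enzymes, 4 rose (19%) and 6 fell (28.6%), beside 13.1% and 12.8% of all genes. Uba6, an E1 enzyme, rose from 13.8 and 10.7 CPM to 20.4 and 21.2 CPM, a log2 fold change of 0.77 (SE 0.15, edgeR adjusted p = 0.014), and stood at -0.03 after the correction. Dmwd, a relative of the Usp12 and Usp46 partner Wdr20, had 188 and 198 CPM in the control mice and 119 and 115 CPM in the PND mice. It fell by 0.73 on the log2 scale (SE 0.06, edgeR adjusted p = 0.0043). After the correction 2 of the 21 were lower, beside 0.993% of all genes, and Dmwd was called at -0.39 (SE 0.06) with an edgeR adjusted p of 0.0498, its highest over the alternatives.

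The tissue label was checked against marker genes. The 5 hippocampal markers were present in every mouse. Of these, Neurod6 (log2 fold change 0.53) and Zbtb20 (0.44) rose and Wfs1 (-0.70, a lower DEG) fell. Of all genes tested, 13.1% rose and 12.8% fell. The summed neuronal markers ran from 4613 to 4991 CPM. Of the 5 neuronal markers, Map2 rose (0.53) and Tubb3 fell (-0.64). Of the 5 astrocyte markers, Aqp4 (0.73) and Gja1 (0.36) rose and Aldh1l1 (-0.49) fell, while P2ry12 (0.84) rose among 5 microglial markers and Flt1 (0.41) among 4 endothelial ones. None of the markers of red blood cells, striatum or thalamus was called. The choroid plexus markers summed to 126 and 5382 CPM in the control mice and to 2019 and 3428 CPM in the PND mice, with 0 of 4 called, so control mouse 1 stood apart. The oligodendrocyte markers summed to 5330 and 4572 CPM in the control mice and to 5067 and 3276 CPM in the PND mice. RNAs retained in the nucleus summed to 7828 and 7669 CPM in the control mice and to 8647 and 9827 CPM in the PND mice. Of these 5 RNAs 2 rose and 1 fell, beside 13.1% and 12.8% of all genes. No marker was at 0 in all mice. The part of these differences in the values of the Usp genes was not tested. In bulk tissue, fewer cells of a type and less RNA per cell cannot be told apart.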

How the data were processed

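The authors mapped 150 nt reads to mm10 with HISAT, per the methods of the study. The deposited table holds, per its header, a count per gene and mouse, and these are whole numbers with a different total in each mouse. HISAT2 2.1.0, Bowtie2 2.2.3, TopHat2 and HTSeq 0.6.0 are named in the submitters' processing notes, with no role given. Use of strand in counting is not given in the sources used here. The authors' comparison columns (scaled mean signal, fold change, p-values and marks) were not used. Totals ran from 15763432 to 18573386 counts.

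The members and lists were chosen with earlier results of these data known, and the pairs of relatives and the Cys box after the values were seen. Counts were filtered with filterByExpr (minimum count 10), scaled by TMM and tested for condition in R 4.3.3 with edgeR 4.0.16 (glmQLFit without its legacy form, and glmQLFTest) and Benjamini-Hochberg adjustment over 17144 genes, after a test on simulated data. CPM are counts over the TMM-scaled library size. Standard errors were derived from the F statistic. Transcript GC content, length and the overlaps were taken from GENCODE M21, and the trends were fitted with mgcv 1.9.3. Alternatives were library totals, DESeq2 1.42.0 and its size factors, limma 3.58.1 with voom, no filter, a replicate block, the GC and length correction with and without the block, and leaving out each mouse. GC without length was chosen after seeing the data. Values in every mouse are given for the DEGs, the 5 largest rises and falls among members with an adjusted p under 0.05 and the 3 highest levels. The same holds for Usp2, Usp5, Usp7, Usp9x, Usp14, Usp18, Usp22, Usp30 and Usp46. It also holds for the 3 largest changes among the other deubiquitinases and among the partners, ubiquitin genes and E1 enzymes. For marker genes only sums or fold changes are given. Other members are named to complete a group. The values of 1 gene that this rule selects are not reported here.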

Additional observations from a re-analysis of the deposited data

How the results depend on the processing

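With 2 mice a group, 2 conditions and no other batch label, only changes above the spread of these mice could be called, and members with few reads (Usp18, Usp43, Usp50, Usp51) had standard errors of 0.30 to 0.79. The 11 members that rose became 7 without a filter and 0 with the GC and length correction, with that correction and the replicate block, and with GC alone, and ran from 5 to 10 as each mouse was left out. The 5 that fell became 2, 8 and 2 under the 3 corrections, and ran from 3 to 5. The 3 higher DEGs became 5 with library totals, 0 under each correction and ran from 4 to 5 as each mouse was left out. The 0 lower DEGs became 1 (DESeq2, its size factors in edgeR, no filter) and ran from 0 to 1. The share of DEGs among all genes is not given for these settings, so the DEG counts of the members have no background there. The median log2 fold change of the members became 0.14 with voom and -0.02 under each correction, and ran from 0.05 to 0.14. The other deubiquitinases that rose became 7 without a filter and 0 under each correction, and ran from 7 to 11. Those that fell became 0 under the GC and length correction and with GC alone. All genes that rose became 1315 without a filter, 95 with the GC and length correction and with GC alone, and 740 with the correction and block, and ran from 1179 to 2010. All that fell became 1350 without a filter and 170 under both corrections without the block, and ran from 1139 to 2010.

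Under the 3 corrections Usp14 became -0.48, Usp46 -0.01, Usp7 -0.08 and Usp9x -0.53 (-0.54 with GC alone). Usp18 became -0.00 with DESeq2, its size factors or no filter, -0.73 without control mouse 1, -1.04 without PND mouse 2 and at most 1.75 as each mouse was left out. The cause was not tested. The replicate block alone gave 13 that rose, with Usp31 and Usp32 added, and 6 that fell, with Usp30 added, beside 15.5% and 15.3% of all genes. The numbers were not taken to pair the mice: deviations of mice with the same number correlated by 0.22 over all genes and 0.75 over the members, in 2 pairs only. Usp18 differed the most between mice of a group (6 and 36 reads in control, 9 and 30 in PND mice). The value for the members without Usp18 was not computed.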
